A study of Mus musculus with 8 samples.

Results

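The acute-phase plasma protein genes examined here were Hp, Orm1, Orm2, Itih4, Lbp, Ptx3, Saa1, Saa2, Saa3 and Saa4, chosen by gene symbol as 10 of the 18901 genes in the deposited expression table. RNA was sequenced from cheek skin of 8 female mice, 4 TBX20fl/fl;K14-Cre mice (called knockout mice) and 4 TBX20fl/fl mice (called control mice). All 8 mice carried the floxed Tbx20 alleles, were 7 weeks old, and received 10 µg of brain natriuretic peptide (BNP) into the skin of the cheek, and tissue was taken 5 h after a 30 min recording of behaviour. In knockout mice the K14 promoter, which is active in basal keratinocytes, drives Cre and removes exons 2 and 3 of Tbx20, whereas the sequenced tissue was whole skin, and no uninjected skin is compared here.

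Acute-phase proteins are secreted into plasma when tissue is injured or infected, mostly by hepatocytes. Interleukin-1, interleukin-6, oncostatin M and tumour necrosis factor induce their genes through C/EBP, NF-κB and STAT3 transcription factors, and several of the genes are also transcribed outside the liver, in adipocytes, macrophages, fibroblasts or epithelium. Haptoglobin binds free haemoglobin, the serum amyloid A proteins travel with high-density lipoprotein, and the pentraxin PTX3 opsonises microbes.

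The promoters of 4 genes are shown because they belong to genes whose levels are described in most detail below and because C/EBP factors are textbook activators of acute-phase genes. The sequences are the 250 bases before the RefSeq start site (GRCm38.p6), 5′ to 3′ on the strand of the gene, and capitals mark the C/EBP letters TTGCNNAA or their reverse complement. They lie at chr7:46742981-46743230 (minus strand) for Saa1, chr7:46751583-46751832 (plus strand) for Saa2, chr7:46715677-46715926 (minus strand) for Saa3 and chr3:66219637-66219886 (plus strand) for Ptx3. The Saa3 window and part of the Saa1 window fall inside the gene spans of the deposited table, which begin farther upstream than the RefSeq starts.
Saa1: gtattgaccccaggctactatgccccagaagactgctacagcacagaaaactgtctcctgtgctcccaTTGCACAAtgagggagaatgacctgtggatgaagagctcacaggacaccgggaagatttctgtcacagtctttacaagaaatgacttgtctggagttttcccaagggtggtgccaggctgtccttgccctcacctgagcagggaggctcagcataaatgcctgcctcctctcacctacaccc
Saa2: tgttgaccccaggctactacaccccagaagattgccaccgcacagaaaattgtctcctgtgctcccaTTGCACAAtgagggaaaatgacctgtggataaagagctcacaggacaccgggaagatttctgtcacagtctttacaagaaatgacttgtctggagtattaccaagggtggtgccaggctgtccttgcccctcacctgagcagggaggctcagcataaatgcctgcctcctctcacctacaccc
Saa3: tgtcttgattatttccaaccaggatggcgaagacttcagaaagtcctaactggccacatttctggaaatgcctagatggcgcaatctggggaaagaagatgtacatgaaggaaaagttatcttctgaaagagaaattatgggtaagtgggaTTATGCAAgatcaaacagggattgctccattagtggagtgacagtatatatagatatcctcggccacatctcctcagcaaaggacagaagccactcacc
Ptx3: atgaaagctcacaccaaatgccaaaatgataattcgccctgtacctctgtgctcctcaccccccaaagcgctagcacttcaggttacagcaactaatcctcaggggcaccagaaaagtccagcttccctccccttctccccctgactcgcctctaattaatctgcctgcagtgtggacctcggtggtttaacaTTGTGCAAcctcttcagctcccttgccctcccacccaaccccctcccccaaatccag

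Of the 10 genes, 7 had a promoter window in the RefSeq table, and 6 of these 7 held the C/EBP letters on either strand, against 9.56% of all 32851 windows of this length. The match began 182 bases before the start in Saa1, 183 in Saa2, 99 in Saa3 and 57 in Ptx3. Further matches were present in Orm2 and Saa4, whereas Itih4 had none. NF-κB letters, written as GGG, any 5 bases and CC, were found in 4 of the 7 windows (45.8% of all windows), and the STAT letters TTCNNNGAA in 1 of 7, that of Itih4 (7.02% of all windows). No match of one motif overlapped another in these 7 windows. The promoters of Saa1 and Saa2 were identical at 238 of 251 aligned positions (94.8%), while every other pair among the 7 was identical at 43.8% to 50.2% of positions. The matches describe letters in the windows, and binding was not measured.

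Library totals ranged from 16056282 to 19880654 estimated counts per mouse, so that 3 counts, taken as the lowest number detected, corresponded to 0.151 to 0.187 CPM (counting error only). Tbx20 had 0 to 2 counts in knockout and 0 to 3 in control mice, too few in whole skin to check the deletion. Control 2 stood apart, with a TMM scaling factor of 0.735 against 1.01 to 1.08 in the other mice, and with more counts on short transcripts. For a transcript of the length of Saa3 (595 bases), the fitted length trend of control 2 was 1.24 above the mean of the 8 mice on the log2 scale, against -0.39 to 0.16 in the others. Members are therefore also given without control 2, or with the length trend removed, where that moves a value. As a check of the skin label, keratinocyte markers were abundant in every library (summed FPKM of 8 markers 3979 to 5023 in knockout and 3761 to 5239 in control mice), and 8 skeletal muscle markers summed to more, 8971 to 17900 FPKM over the 8 mice.

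All 10 genes had at least 10 counts over the 8 mice and were tested, and each had a fitted log2 fold change below 0 in knockout against control skin, whereas 47.5% of the 17124 genes tested were below 0. The median log2 fold change was -0.995 over the 10 genes and 0.03 over all genes tested. After Benjamini-Hochberg adjustment over all genes of edgeR's quasi-likelihood p-values, 0 of the 10 and 0 of 17124 genes (0% called) had an adjusted p under 0.05, with a smallest adjusted p of 0.498, while 1431 genes had an unadjusted p under 0.05. Lower in knockout skin at an unadjusted p under 0.05 were 6 of the 10, namely Hp, Saa2, Saa3, Saa1, Orm1 and Ptx3, against 5.91% of all genes tested. In DESeq2's Wald test, an alternative tool that gave an adjusted p for 9 of the 10 (not Saa4) and for 16410 genes, 3 members (Hp, Saa2 and Saa3) were lower with an adjusted p under 0.05, against 0.0548% of those genes (9 genes). FPKM values of the 2 genotypes did not overlap and were lower in knockout mice for 4 of the 9 members whose mean FPKM reached 0.1 (Hp, Saa1, Saa2 and Saa3), against 1.92% of 15970 genes. On this scale 5.45% of genes were higher without overlap (0 of the 9 members), the opposite balance to that of the edgeR calls, where 2.45% of genes were higher at an unadjusted p under 0.05. In the edgeR fits used below as alternatives, the share of all genes lower at that p was 4.5% without control 2 (3.19% higher), 5.19% with the length trend removed (3.43% higher) and 6.54% with replicate numbers fitted as pairs, called the replicate block (3.52% higher). The genes were chosen with earlier results for some of them known, and these shares describe the list without testing it.

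**Figure D1:**
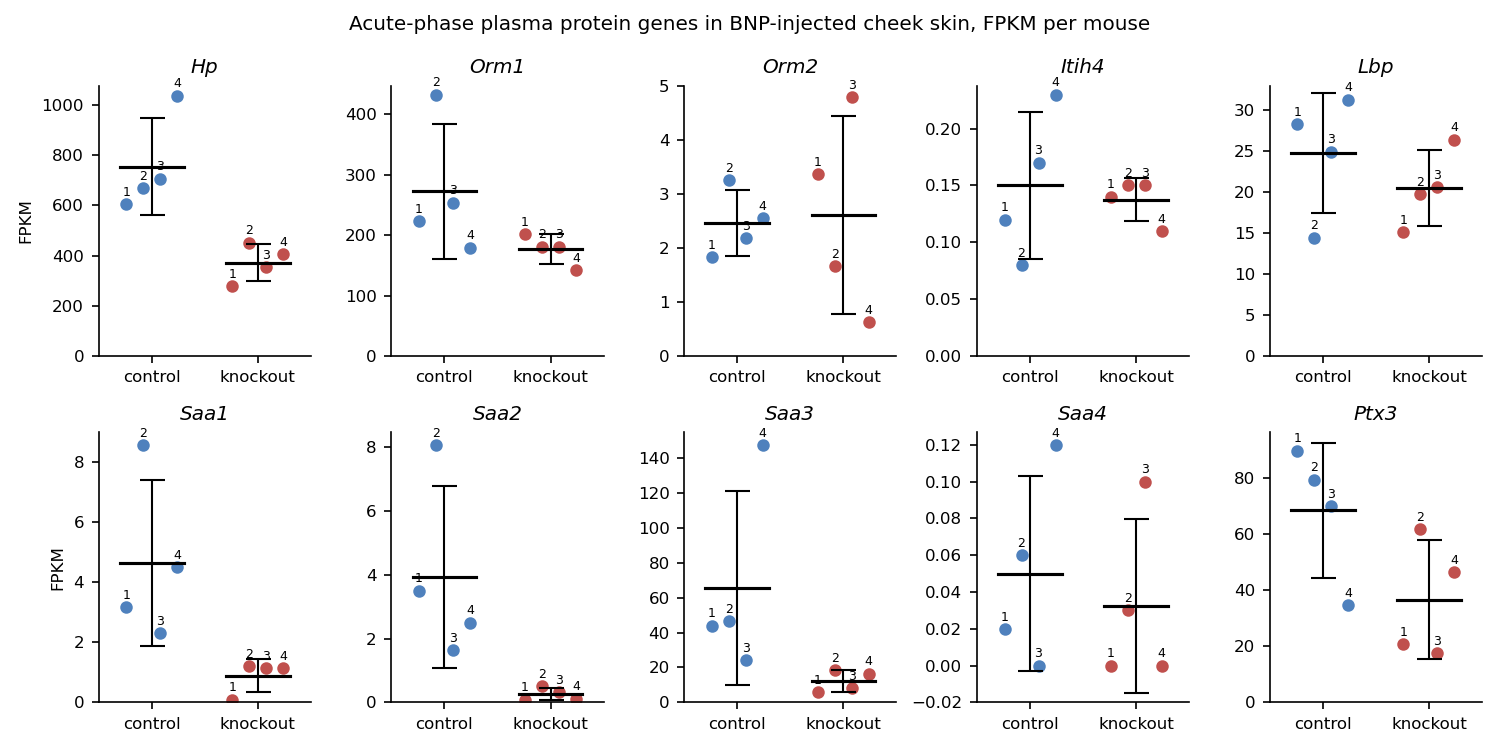
FPKM (y axis, linear, own scale in each panel) of the 10 genes in each mouse, control in blue and knockout in red, with the replicate number beside each point, the mean as a bar and the SD (n = 4) as whiskers. The genotypes do not overlap for Hp, Saa1, Saa2 and Saa3 and overlap for the other 6 genes.

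By mean FPKM, a per-length scale, the genes differed widely and were led in both genotypes by Hp and Orm1. In control mice Hp was 151st and Orm1 346th among all genes, and in knockout mice they were 218th and 445th. Ptx3, Saa3 and Lbp followed with overlapping ranges between neighbours, and their order was Ptx3, Saa3, Lbp in control and Ptx3, Lbp, Saa3 in knockout mice. Below them Saa1, Saa2 and Orm2 overlapped in control mice and were listed at means of 4.64, 3.93 and 2.46 FPKM, while in knockout mice Orm2 came first with 2.62, then Saa1 with 0.895 and Saa2 with 0.26. Itih4 and Saa4 were lowest, at means of 0.15 and 0.05 FPKM in control mice. Levels between genes rest on the authors' transcript lengths.

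Among the scavenger and binding proteins, haptoglobin (Hp), which captures haemoglobin released from red cells, was the most abundant. Hp measured 279, 451, 354 and 404.5 FPKM in knockout mice 1 to 4 and 606, 669, 707 and 1039 FPKM in control mice 1 to 4. Every knockout mouse was below every control mouse, and control 4 was the highest. Mean FPKM was 372 ± 73.6 (SD, n = 4) in knockout and 755 ± 194 in control mice, and the difference gave p = 0.0286 in a two-sided exact permutation test, the lowest value that 4 mice against 4 can reach. The edgeR log2 fold change was -1.19 (SE 0.227, unadjusted p = 0.000485, adjusted p = 0.498), and in DESeq2's test the adjusted p was 0.00115. With the length trend removed it was -0.89, and without control 4 it was -1.06. Hp, on chromosome 8 of GRCm38 from 109575128 to 109579172, shared none of its 50-base stretches with another annotated gene, although its estimated counts were not whole numbers in any of the 8 mice.

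Orosomucoids (Orm1, Orm2) are alpha-1-acid glycoproteins that bind basic and lipophilic compounds in plasma, and their genes lie with Orm3 in a cluster of 21.3 kb on chromosome 4 of GRCm38, Orm1 from 63344556 to 63348163 and Orm2 from 63362449 to 63365877. Orm1 measured 202, 181, 181 and 143 FPKM in knockout mice 1 to 4 and 224, 433, 254 and 179 FPKM in control mice 1 to 4. Control 2 was far above the rest, and control 4 lay within the knockout range (two-sided exact permutation test, p = 0.114), while the knockout mouse was the lower one in 4 of 4 same-numbered pairs. In edgeR a log2 fold change of -0.88 (SE 0.363, unadjusted p = 0.0373, adjusted p = 0.498) became -0.36 without control 2 and -0.23 with the length trend removed, with unadjusted p = 0.0623 and 0.153 in edgeR. A fit with the replicate block gave -0.71 (SE 0.287, unadjusted p = 0.0449, adjusted p = 0.405 in edgeR), and -0.23 with the block and the length trend removed (unadjusted p = 0.0974). Orm1 made up 95.8% to 98.8% of the summed FPKM of Orm1, Orm2 and Orm3 in knockout mice and 98.0% to 98.6% in control mice.

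Orm2 measured 3.37, 1.67, 4.80 and 0.63 FPKM in knockout mice 1 to 4 and 1.83, 3.26, 2.18 and 2.56 in control mice 1 to 4. Knockout values lay on both sides of the control values, and the knockout mean was higher by 0.16 FPKM (two-sided exact permutation test, p = 0.943). On the count scale its log2 fold change was -0.12 (SE 0.556) and turned to 0.21 without control 2 and to 0.45 with the length trend removed. Of the 50-base stretches of their coding transcripts, Orm1 shared 20.4% and Orm2 22.7% with other genes of the cluster and a related gene model, so counts of these genes are uncertain where reads were split. Orm3, the other gene of the cluster, had a log2 fold change of -0.40 (SE 0.476, adjusted p = 0.643 in edgeR), and it too was near 0 or above without control 2 (0.01) and with the length trend removed (0.17).

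Itih4, a heavy chain of the inter-alpha-trypsin inhibitor family on chromosome 14 (30886476 to 30901986), was barely detected. Its counts were 8, 9, 9 and 7 in knockout mice 1 to 4 and 7, 4, 10 and 13 in control mice 1 to 4, with overlapping genotypes. The log2 fold change was -0.24 (SE 0.342, adjusted p = 0.692 in edgeR), a difference not detectable at this depth.

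Lbp (chromosome 2, 158306493 to 158332852), which carries lipopolysaccharide to CD14, was present at a moderate level. Lbp measured 15.1, 19.8, 20.6 and 26.4 FPKM in knockout mice 1 to 4 and 28.3, 14.4, 24.9 and 31.3 FPKM in control mice 1 to 4. The lowest of the 8 mice was control 2, and the genotypes overlapped (two-sided exact permutation test, p = 0.4). The edgeR log2 fold change was -0.40 (SE 0.196, unadjusted p = 0.0695, adjusted p = 0.498), and it was -0.51 without control 2, where the unadjusted p was 0.0123. Of its coding stretches 0.274% occurred in other genes.

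Serum amyloid A genes (Saa1 to Saa4) lie within 42.3 kb of chromosome 7, from Saa3 at 46711998 to the end of Saa2 at 46754314 on GRCm38. Saa1 and Saa2 are the inducible plasma forms in mice, Saa3 is the form transcribed mainly outside the liver, and Saa4 is the constitutive form. Saa3 was the main one in skin, with 84.0% to 97.1% of the summed FPKM of the 4 genes in knockout mice and 73.7% to 95.4% in control mice.

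Saa3 measured 5.92, 18.6, 8.30 and 16.4 FPKM in knockout mice 1 to 4 and 44.0, 46.7, 24.1 and 147 FPKM in control mice 1 to 4. Control 4 was far above the other mice, and the lowest control, control 3, was still above the highest knockout mouse. Mean FPKM was 5.33 times higher in control mice (12.3 ± 6.15 against 65.5 ± 55.5, SD, n = 4), with p = 0.0286 in the two-sided exact permutation test. On counts, edgeR's log2 fold change of -2.56 (SE 0.567, unadjusted p = 0.00135, adjusted p = 0.498) was -1.91 without control 4 and -2.18 with the length trend removed. In DESeq2's test the adjusted p was 0.00598.

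Saa1 had 1.02, 15.1, 12.7 and 12.8 estimated counts in knockout mice 1 to 4 and 35.1, 77.3, 24.6 and 48.5 in control mice 1 to 4. Knockout 1 was at 0.09 FPKM while the other 3 knockout mice were at 1.14 to 1.20 FPKM, and the control mice, at 2.31 to 8.56 FPKM, were all higher (two-sided exact permutation test, p = 0.0286). Its log2 fold change was -2.54 (SE 0.684, unadjusted p = 0.00454, adjusted p = 0.498 in edgeR), with -1.85 without control 2 and -1.80 with the length trend removed. DESeq2's adjusted p was 0.074.

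Saa2 had the largest fold change of the 10 genes and rested on few reads. Its estimated counts were 1.00, 5.50, 3.59 and 1.37 in knockout mice 1 to 4 and 39.1, 72.6, 17.4 and 26.8 in control mice 1 to 4. The genotypes did not overlap, and knockout 1 and knockout 4 were under the 3-count floor. Mean FPKM was 0.26 ± 0.192 (SD, n = 4) in knockout and 3.93 ± 2.86 in control mice (two-sided exact permutation test, p = 0.0286). Its log2 fold change was -4.08 (SE 0.784, unadjusted p = 0.000503, adjusted p = 0.498 in edgeR), and it was -3.22 without control 2 and -3.31 with the length trend removed. DESeq2's adjusted p was 0.00115. In their coding transcripts Saa1 shared 14.8% and Saa2 11.8% of 50-base stretches with other genes, mainly each other, and over all their annotated transcripts 31.5% and 29.97%, so the split between them is uncertain, whereas the share in Saa3 was 3.64%.

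Saa4 had 0, 1.02, 4.06 and 0 estimated counts in knockout mice 1 to 4 and 0.72, 2.02, 0 and 4.78 in control mice 1 to 4. Most values were under 3 counts in both genotypes, and no fold change is given. Genes beside the cluster had log2 fold changes of -0.25 (Saal1, SE 0.226), 0.37 (Hps5, SE 0.242), -0.18 (Tph1, SE 0.264), -0.34 (Sergef, SE 0.203) and -0.23 (Gtf2h1, SE 0.147), and each of these 5 had an adjusted p of at least 0.5005 in edgeR's test. Ldha, a further neighbour, had -0.55 (SE 0.241, adjusted p = 0.498 in edgeR), or -0.27 with the length trend removed. These neighbours were taken by position.

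**Figure D2:**
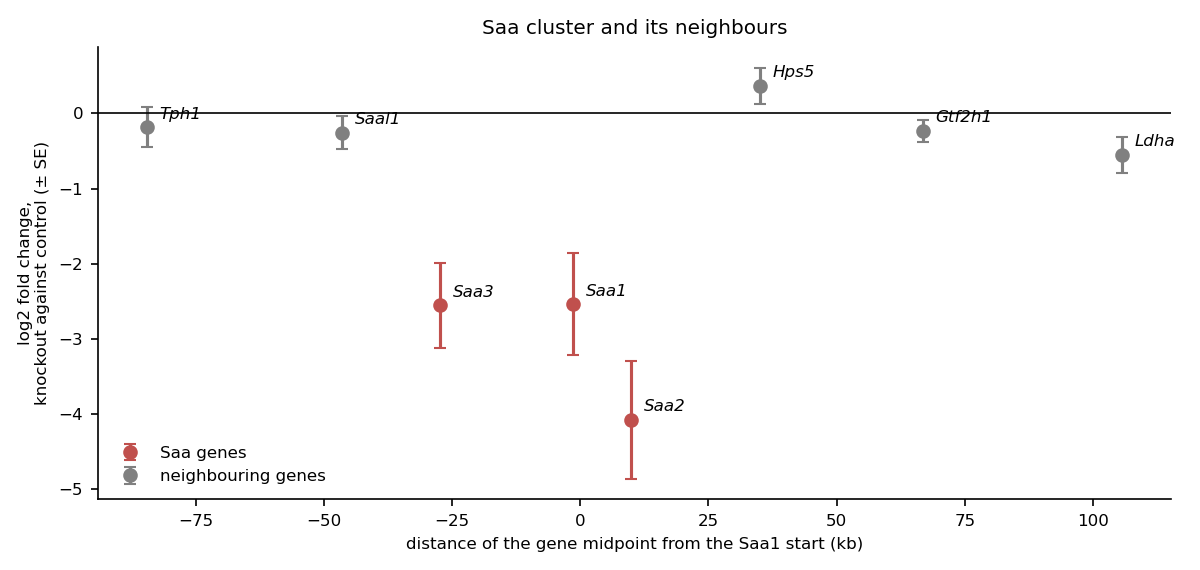
Log2 fold change, knockout against control, with its SE in edgeR (y axis) against the distance of each gene's midpoint from the Saa1 start in kb (x axis), Saa genes in red and neighbouring genes in grey. Saa1, Saa2 and Saa3 lie at -2.54 or lower, and the neighbours between -0.55 and 0.37. Saa4 is left out for its low counts and Sergef for its distance.

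Ptx3 (chromosome 3, 66219887 to 66225806), a pentraxin made locally by fibroblasts, endothelium and myeloid cells rather than by liver, measured 20.7, 61.8, 17.6 and 46.5 FPKM in knockout mice 1 to 4 and 89.8, 79.4, 69.99 and 34.6 FPKM in control mice 1 to 4. All control mice but control 4 were above every knockout mouse, and control 4, the highest for Hp and Saa3, was the lowest control for Ptx3 (two-sided exact permutation test, p = 0.114). The edgeR log2 fold change was -1.11 (SE 0.462, unadjusted p = 0.0387, adjusted p = 0.498). It was -0.88 without control 2, where the unadjusted p was 0.0933, and -0.93 with the length trend removed. Ptx3 shared none of its 50-base stretches with another gene.

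**Figure D3:**
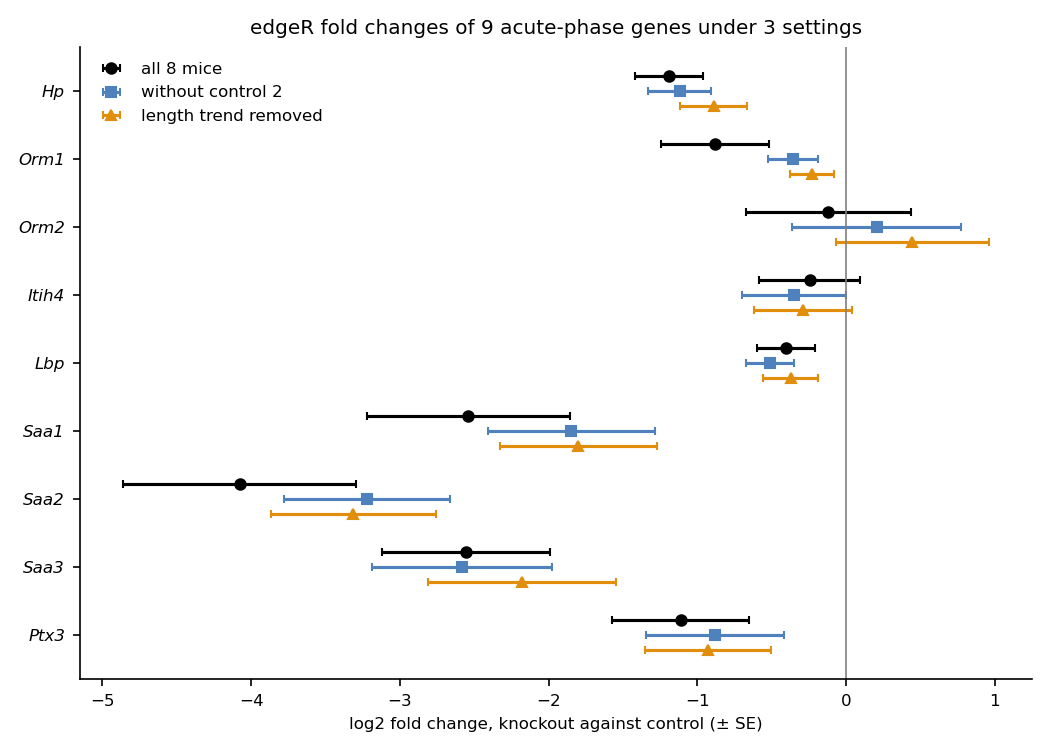
Log2 fold change, knockout against control, with its SE in edgeR (x axis) for 9 genes (rows), with all 8 mice, without control 2, and with the length trend removed. Hp, Orm1, Lbp, Ptx3, Saa1, Saa2 and Saa3 stay below 0 by more than 1 SE under all 3 settings, Orm1 moving from -0.88 to -0.23, and Orm2 crosses 0. Saa4 is left out for its low counts.

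Within genotypes the members did not share one ranking of mice. Among control mice the highest value belonged to control 4 for 5 of the 10 genes (Hp, Lbp, Itih4, Saa3 and Saa4), to control 2 for 4 (Orm1, Orm2, Saa1 and Saa2), and to control 1 for Ptx3. The 4 genes highest in control 2 have transcripts of 562 to 730 bases. For these lengths the fitted length trend of control 2 was 1.14 to 1.26 on the log2 scale. Saa3, with 595 bases, is as short and was highest in control 4. The part of the length trend in this ranking was not tested. Knockout 2 was the highest knockout mouse for Hp, Ptx3 and Saa1 to Saa3. The span from the lowest to the highest control was 1.72-fold for Hp, 2.17-fold for Lbp, 2.59-fold for Ptx3 and 6.12-fold for Saa3.

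Genes whose deviations from the genotype mean most resembled those of 3 members were ranked by Pearson correlation of log2 CPM across the 8 mice among 13293 genes, as a description. For Saa3 these were Epgn (r = 0.933), Ptgs2 (0.932), Tnc (0.927), B3galnt2 (0.924) and Ccdc167 (0.913). Epgn encodes an epidermal growth factor family ligand and Ptgs2 encodes cyclooxygenase-2. For Hp they were Vstm4 (0.945), Dipk1b (0.936), Sdf2l1 (0.931), Ddx41 (0.929) and Nedd1 (0.928). For Lbp they were Ccnd3 (0.986), Thbd (0.967), Acap1 (0.962), Ddx19a (0.960) and Slc2a10 (0.950). All points share the same 8 libraries, and no p is given.

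Of 26 further acute-phase genes, 23 had enough counts to be tested, and their median log2 fold change was -0.30. At an unadjusted p under 0.05 in edgeR, 2 were lower in knockout skin (Lcn2 and Lrg1) and 0 higher, against 5.91% of all genes lower, and 0 passed after adjustment. Lcn2, a siderophore-binding lipocalin, measured 15.0 ± 2.81 FPKM (SD, n = 4) in knockout and 39.3 ± 11.7 in control mice, with a log2 fold change of -1.61 (SE 0.302, unadjusted p = 0.000417, adjusted p = 0.498 in edgeR). Lrg1 had -0.70 (SE 0.214) and the antiprotease gene Serpina3n -0.63 (SE 0.312). Of the 26 genes, 10 were under 0.5 FPKM in every mouse, among them Crp and the fibrinogen genes Fga, Fgb and Fgg, while the hepcidin gene Hamp2 reached 23.1 FPKM and C3 229 FPKM. Without control 2, 4 were lower (Lcn2, Lrg1, Cfb and Serpina3n, against 4.5% of all genes), and with the length trend removed 1 (Lcn2, against 5.19%), while with the replicate block 1 was higher (C3, against 3.52%). Of 9 negative acute-phase genes, whose plasma products decline in inflammation, 8 were tested and 0 had an unadjusted p under 0.05 in edgeR (1, Rbp4, was lower with the replicate block), with a median of -0.23. Albumin (Alb), one of them, was at 7.07 ± 1.91 FPKM in knockout and 5.80 ± 2.01 in control mice, with a log2 fold change of 0.10.

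Upstream of these genes, 18 inducing cytokines and receptors were listed and 17 were tested. Of the 17, 5 were lower in knockout skin at an unadjusted p under 0.05 in edgeR and 0 higher, against 5.91% of all genes lower, with 0 after adjustment and a median of -0.06. The 5 were among 8 ligands tested. Il1b measured 33.0 ± 19.9 FPKM (SD, n = 4) in knockout and 114 ± 60.1 in control mice, a log2 fold change of -2.06 (SE 0.563). Il6, the main hepatic inducer, had -2.01 (SE 0.642), Osm -1.50 (SE 0.460), Tnf -1.29 (SE 0.394) and Il1a -0.81 (SE 0.219), and all 5 cytokines had an adjusted p of 0.498 in edgeR. Without control 2 these became -1.43 for Il1b, -1.05 for Il6, -0.92 for Osm, -1.08 for Tnf and -0.55 for Il1a. The other 3 ligands were low and had log2 fold changes of 0.06 (Lif, SE 0.291, unadjusted p = 0.848), 0.28 (Il11, SE 0.301, unadjusted p = 0.380) and -2.26 (Il17a, SE 1.05, unadjusted p = 0.0583) in edgeR, Il17a with 0 to 6 counts per mouse. The 9 receptor genes of the list had log2 fold changes from -0.12 (Tnfrsf1a and Osmr) to 0.39 (Il22ra1), with the smallest unadjusted p at 0.283 (Il6st) in edgeR. Without control 2 the receptors ran from -0.31 (Osmr) to 0.13 (Il22ra1). With the length trend removed they ran from -0.34 (Osmr) to 0.25 (Il6ra), and Osmr was lower at an unadjusted p under 0.05 in edgeR. Whether ligands and receptors differed was not tested.

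Of 14 transcription factors and feedback genes, 13 were tested, and 3 were lower at an unadjusted p under 0.05 in edgeR (Nfkbiz, Cebpd and Socs3) against 5.91% of all genes, 0 higher and 0 after adjustment, with a median of -0.13. Without control 2, a fit with fewer mice, only Nfkbiz of the 13 was lower at that p. The log2 fold change of Socs3 was nearly the same there (-0.67 to -0.65), and that of Cebpd moved from -0.73 to -0.46. Cebpd, an acute-phase activator that is itself induced by cytokines, had a log2 fold change of -0.73 (SE 0.307). Socs3, the feedback inhibitor of STAT3 signalling, had -0.67 (SE 0.292), and Nfkbiz, a nuclear NF-κB cofactor, had -0.50 (SE 0.179). Stat3 (0.06, SE 0.270) and Cebpb (-0.23, SE 0.133) differed by less than 2 SE from 0. Hnf4a, a regulator of hepatocyte genes, was under 0.5 FPKM in every mouse.

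Downstream, 21 receptors and partners of the proteins were tested, with 7 lower at an unadjusted p under 0.05 in edgeR against 5.91% of all genes, 0 higher and 0 after adjustment, and a median of -0.40. Without control 2, a fit with fewer mice, 2 were lower (Cd14 and Fpr2), against 4.5% of all genes. Among the calls lost there, the log2 fold change was nearly the same for Tlr2 (-0.485 to -0.464). It moved from -1.03 to -0.73 for Tnfaip6, from -1.20 to -0.75 for Fpr1, from -0.71 to -0.37 for Ly96 and from -0.59 to -0.38 for C1qb. With the length trend removed 6 were lower (against 5.19%) and 1 higher (P2rx7, against 3.43%). Ly96 (-0.71 to -0.06), C1qb (-0.59 to -0.15) and Fpr1 (-1.20 to -0.79) were then no longer among those lower, whereas Tlr4 and Has2 (-0.42 to -0.68) were. With the replicate block 5 were lower (against 6.54%) and 3 higher (Cd163, Lrp1 and P2rx7, against 3.52%). Fpr2, a formyl peptide receptor that binds serum amyloid A, had a log2 fold change of -1.46 (SE 0.389). Cd14, which receives lipopolysaccharide from LBP, had -1.20 (SE 0.345), and Tlr4, the signalling receptor of that complex, -0.33 (SE 0.164), or -0.95 with the length trend removed. Tnfaip6, which with PTX3 and the inter-alpha-trypsin inhibitor heavy chains organises hyaluronan matrix, had -1.03 (SE 0.371). The haptoglobin receptor Cd163 had 0.36 (SE 0.277). For these 5 genes the adjusted p was 0.498, or 0.526 for Cd163, in edgeR's test.

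**Figure D4:**
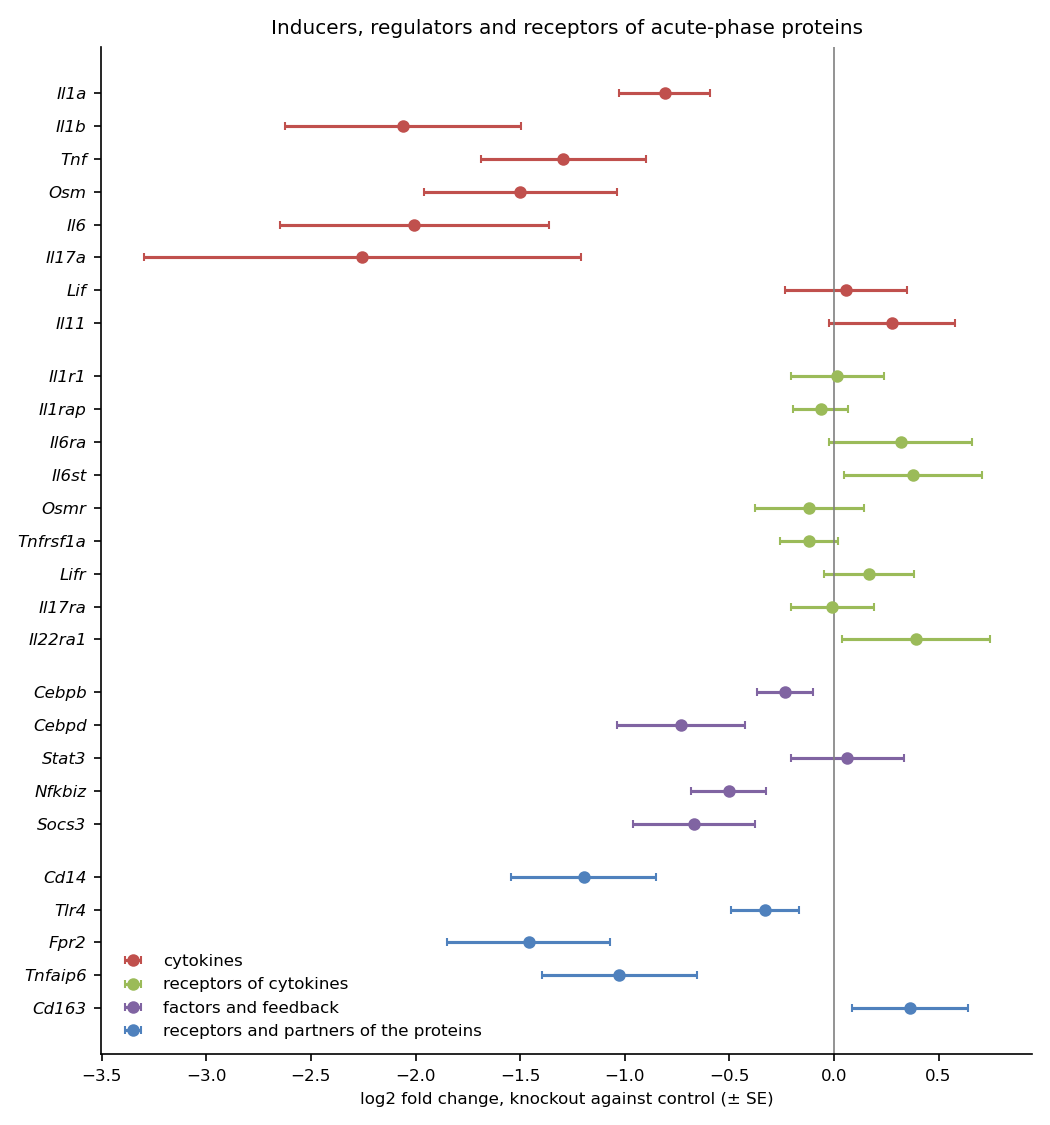
Log2 fold change, knockout against control, with its SE in edgeR (x axis) for the inducing cytokines and receptors tested, transcription factors and feedback genes, and receptors or partners of the acute-phase proteins (rows). Of the 8 cytokines, Il17a, Il1b, Il6, Osm, Tnf and Il1a lie between -2.26 and -0.81 and Lif and Il11 at 0.06 and 0.28, and the 9 receptors lie between -0.12 and 0.39. Control 2 is included in these values.

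Markers of other cell types were read in the same libraries, since in bulk skin fewer cells of a type and less RNA per cell cannot be told apart. Of 12 neutrophil markers, 7 were lower in knockout skin at an unadjusted p under 0.05 in edgeR and 0 higher, against 5.91% of all genes lower, with a median log2 fold change of -0.94. As many, 7, were lower without control 2 and with the length trend removed, with Csf3r in place of Ngp. Their summed FPKM was 221 to 427 in knockout and 446.5 to 1143 in control mice, which did not overlap, and the sum was highest in control 2 (1143) and control 4 (1113). The length trend was not removed from these sums. With it removed in edgeR, the log2 fold change moved from -2.10 to -1.33 for S100a8 and from -2.09 to -1.35 for S100a9. With all mice, Mmp9 (-0.002), Ltf (-0.13) and Camp (0.57) were near 0 or above. S100a8 and S100a9, which inflamed keratinocytes can also express, carried most of it together with Il1r2 (named after its values were seen), and further markers were lower in level. Retnlg was at 11.3 to 46.0 FPKM over the 8 mice, Csf3r at 8.66 to 24.1, Cxcr2 at 4.63 to 17.2, Mmp9 at 1.69 to 9.01 and Mmp8 at 0.82 to 4.71 FPKM. Camp and Ly6g reached at most 1.47 and 0.56 FPKM, and Ngp and Ltf were under 0.5 FPKM in every mouse. The part of this difference in the levels of the acute-phase genes was not tested.

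Of 8 macrophage markers, 2 (Cd14 and Lyz2) were lower at an unadjusted p under 0.05 in edgeR, against 5.91% of all genes (2.45% were higher), with summed FPKM of 1011 to 1517 in knockout and 1202 to 2333 in control mice. Without control 2 or with the length trend removed Cd14 was lower and Lyz2 was not (-0.83 became -0.36 and -0.27). Of 10 adipocyte markers, 1 (Retn) was lower, 0 without control 2, and the sums overlapped at 3802 to 5324 and 3889 to 6408. Of 10 hepatocyte markers, 1 (Cps1) was higher, and the sums overlapped at 88.2 to 261 and 113 to 169, of which Cyp2e1 held most. Cps1 was at 3.41 FPKM in knockout 2 and at 0.02 to 0.24 in the other 7 mice, so its call rests on 1 mouse, and it was lost with the replicate block. Alb was at 3.93 to 8.74 FPKM, Apoa2 at 0.11 to 2.10, and Serpina1c, Ahsg and Fabp1 reached at most 0.91, 0.68 and 0.68 FPKM, while Apob, Cyp3a11 and Tat were under 0.5 FPKM in every mouse. Fibroblast (0 lower and 2 higher of 8, Col1a1 and Col1a2), endothelial (0 of 6) and red blood cell (0 of 6 tested) markers were not lower at an unadjusted p under 0.05, and of 8 skeletal muscle markers 1 (Myl1) was lower, 0 without control 2, with summed FPKM of 8971 to 15060 in knockout and 12000 to 17900 in control mice. With the replicate block 3 endothelial markers (Cdh5, Kdr and Vwf) and the muscle marker Myh2 were higher, and with the length trend removed Adipoq was higher, Ttn lower, and Col1a2, Retn and Myl1 no longer called. The single markers behind these counts are named after their values were seen.

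**Figure D5:**
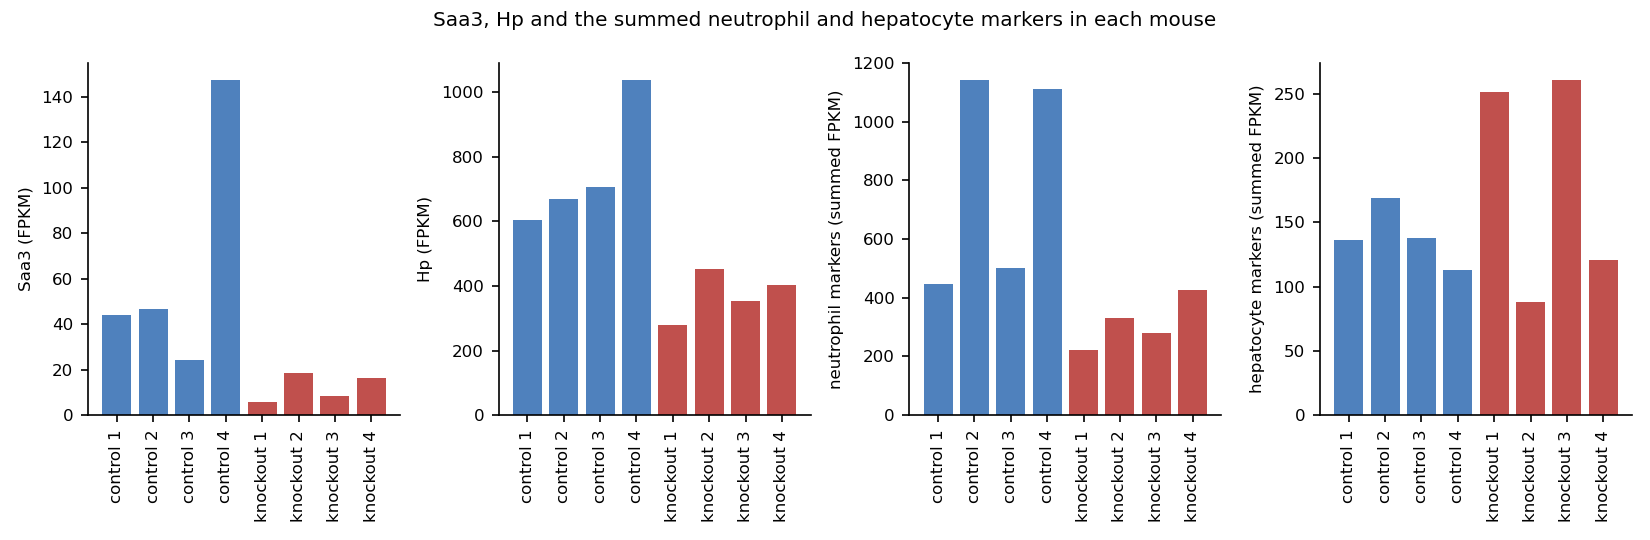
Saa3 FPKM, Hp FPKM and the summed FPKM of 12 neutrophil and 10 hepatocyte markers (y axes, from 0) in each of the 8 mice (x axis), control in blue and knockout in red. The neutrophil sum is 221 to 427 in knockout and 446.5 to 1143 in control mice without overlap, whereas the hepatocyte sums overlap. The length trend is not removed from these values.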

How the data were processed

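RNA was measured in cheek skin of 4 knockout and 4 control mice, 1 library per mouse, grouped by the genotype label. The authors purified mRNA with oligo(dT) beads, sequenced single-end 50-base reads, aligned them with HISAT after filtering by SOAPnuke (settings of 15 for -l, 0.2 for -q and 0.05 for -n). The counting program is not given in the sources used here. The authors deposited estimated counts (expected counts), which were not normalized and of which 69.0% of those above 0 were not whole numbers, and FPKM values normalized by transcript length and mapped reads. The authors also deposited TPM values, size-factor-normalized counts (a signal), group means, and the log2 fold changes, p-values and q-values of their own comparisons, none of which were used. Gene coordinates in the deposited table are on GRCm38.

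After rounding of the counts, the 17124 genes that summed to 10 or more over the 8 mice were compared between genotypes in edgeR 4.0.16 (R 4.3.3; TMM scaling, quasi-likelihood test), with Benjamini-Hochberg adjustment over all genes and a threshold of 0.05. SE refers to the log2 fold change. FPKM values of single genes were compared with two-sided exact permutation tests over 70 assignments, and the 15970 genes whose mean FPKM reached 0.1 with limma 3.58.1 on log2(FPKM + 1), where 0 genes passed (smallest adjusted p = 0.457, and 1046 with an unadjusted p under 0.05). The median log2 difference of all genes there was 0.12, against 0.03 in edgeR. DESeq2 1.42.0 was an alternative, as were other scalings and filters, a bias-adjusted fit, leaving out each mouse, the replicate number as a block, and a lowess trend (span 0.3) with transcript length, removed from each mouse. The main edgeR fit, the edgeR fits with the length trend removed or with the block, DESeq2 and limma were run on simulated counts. The simulation held no length trend and no pairing, and the other alternatives were not run on it. Deviations of same-numbered mice, whose numbers come from the labels, correlated in 4 of 4 pairs (r from 0.160 to 0.405 across 13298 genes, against -0.518 to 0.426 between other mice), each over 0.1. The highest value between other mice, that of knockout 4 with control 1, was above every same-numbered value. Whether the numbers pair the mice is therefore not established, and the block was kept as an alternative only.

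The members, gene lists, tests and alternatives were chosen with earlier results of these data known. Named were all 10 members, genes fixed by role, the 3 genes with the smallest edgeR p of 4 lists, and the 5 genes most like Hp, Lbp and Saa3 with a mean of at least 50 counts. The 3 promoter motifs were textbook letters picked after the files were opened, no others were searched, and the choice to print only the C/EBP letters in capitals was made after their counts were known. The study's methods name littermates as controls for behaviour tests, the labels do not say which mice shared a litter, and p-values measure the spread between these mice. Python 3.11.15, numpy 2.4.6, pandas 2.3.3 and scipy 1.17.1 were used.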

Additional observations from a re-analysis of the deposited data

Results flagged for a closer look

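Among 40 groups of 4 mice examined for a mouse far from the rest, 2 stood out, and chance alone gives about 2. The first was Saa1, where knockout 1 had 0.09 FPKM, with a gap to the next mouse that was 0.946 of the range of the knockout mice (above the 95% critical value of Dixon's test). The second was the TMM factor of control 2, 0.735, with a gap of 0.883 of the range of the control mice. Control 2 also had the lowest library total, 16056282 counts. Its median Spearman correlation with the other mice was 0.919, and the other mice had medians of 0.974 to 0.990.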

How the results depend on the processing

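The count of genes past an adjusted p of 0.05 was 0 in edgeR under every scaling, filter, length and pairing alternative and with each mouse left out, and 10 in DESeq2's Wald test. The cause was not tested. In the edgeR fit with the replicate block, 0 genes passed (smallest adjusted p = 0.405), 6 of the 10 acute-phase genes were again lower at an unadjusted p under 0.05 (6.54% of all genes were), and the pairing changed no call of these 10. With the length trend removed, adding the block moved that count from 4 to 5 (5.19% and 6.49% of all genes), as Lbp went from an unadjusted p of 0.0717 to 0.0493 in edgeR. Counts over the other gene lists without control 2, with the length trend removed and with the block were added after seeing the data. The count of 6 ranged from 4 to 7 over 17 alternatives and was 4 with the length trend removed, and the median log2 fold change of the 10 genes from -1.19 to -0.79. Hp, Saa1, Saa2 and Saa3 had an unadjusted p under 0.05 in 17 of 17 alternatives, Orm1 in 11 and Ptx3 in 10. An adjusted p under 0.05 for Hp, Saa2 and Saa3 came from DESeq2 alone.

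The sign of the Orm2 log2 fold change turned to 0.45 with the length trend removed, to 0.21 with the trend removed and the block, and without single mice it ranged from -0.57 to 0.21. Its FPKM difference, 0.16 with all mice, ranged from -0.57 to 0.82 without single mice and was -0.0768 on the log2(FPKM + 1) scale. Without single mice the FPKM difference ranged from -0.0358 to 0.0142 for Itih4 and from -0.04 to 0.00583 for Saa4, both above 0 without control 4. With 1 mouse left out the exact test can reach no p below 0.0571, and with 4 pairs none below 0.125, so those alternatives cannot pass the threshold. Itih4 and Saa4 had at most 13 and 4.78 counts in any mouse, and Saa2 at most 5.50 in knockout mice, which limits their precision.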
